A study of Mus musculus with 12 samples.

Results

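CpG methylation at the subtelomeric distal ends of the 19 mouse autosomes was measured by eRRBS in 12 embryonic stem (ES) cell lines. A CpG site was counted as distal if it lay within 2000000 bp of the last CpG listed for its chromosome, on chr1 to chr19. This selected 301737 of the 21867550 CpG sites, in 1 window of 2 Mb per chromosome, and used no methylation value. Each window was set against the 3157538 CpG sites at 20 to 40 Mb of the same chromosomes, matched for CpG density, that is, for the number of other CpG sites within 100 bp on each side.

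All 12 lines were triple-knockout (TKO) mouse ES cells that lack Dnmt1, Dnmt3a and Dnmt3b, grown with serum and leukemia inhibitory factor. They were transfected with the pPyCAGIZ vector carrying human DNMT3A WT, DNMT3B WT, or DNMT3B with the substitution N656I, K777A or N779A, with 2 independently derived lines per group. Per the labels, cells were selected in 50 µg/ml Zeocin for 10 days and kept in 25 µg/ml Zeocin, whereas the study's methods give a longer selection. DNMT3B WT was profiled in a set a, the control for DNMT3A WT and N656I, and a set b, the control for K777A and N779A. As the lines lack all 3 endogenous enzymes, CpG methylation in them depends on the introduced enzyme, which is human and expressed from a vector. No line without an introduced enzyme was analysed here, so the level without an enzyme is not known from these data. Bisulfite conversion was checked by the study on phage λ DNA and is stated to be near complete.

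Mouse chromosomes are telocentric, so that the high-numbered end of each autosome in the genome sequence is the end of its long arm. A telomere consists of repeats of TTAGGG, which hold no CpG, and the DNA next to it, the subtelomere, is where CpG methylation can first be measured. De novo methylation of mouse subtelomeres is carried out by DNMT3A and DNMT3B. ICF syndrome is an immunodeficiency caused by mutations in DNMT3B and other genes. In patients with DNMT3B mutations, subtelomeres lose methylation and telomeres are short.

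The listed CpG sites reached almost to the telomere repeat. In GRCm38, 18 of the 19 chromosomes have at least 1 TTAGGG unit after the last CpG, the exception being chr4. Runs of TTAGGG also occurred further in. Pairs of adjacent units numbered 0 to 59 per distal window (median 10) and were present in 18 of 19. In the other windows the median was 1 pair, and 56.9% of them had a pair, so the repeat was more frequent near the ends but was not particular to them.

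Few single sites of the windows had enough reads to be compared. Between 46 and 95 distal sites per comparison had at least 10 reads in all 4 lines. For each comparison, the CpG nearest to any end among them is shown with 100 bases on each side, the CpG in capitals. None of these sites lies in an annotated gene.
chr6:149566191-149566392, 20.1 kb from the last CpG, 2962 bp from Bicd1: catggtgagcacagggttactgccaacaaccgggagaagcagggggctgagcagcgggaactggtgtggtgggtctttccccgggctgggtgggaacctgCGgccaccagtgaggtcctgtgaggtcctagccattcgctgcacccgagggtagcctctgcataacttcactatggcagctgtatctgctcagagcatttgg
chr4:156327478-156327679, 29.8 kb from the last CpG, 3525 bp from the pseudogene Vmn2r-ps159: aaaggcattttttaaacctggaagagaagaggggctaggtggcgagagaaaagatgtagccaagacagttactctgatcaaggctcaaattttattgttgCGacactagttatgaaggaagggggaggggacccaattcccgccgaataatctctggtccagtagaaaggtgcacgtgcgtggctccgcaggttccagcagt
chr19:61266768-61266969, 64.3 kb from the last CpG, with 16 CpG in the stretch: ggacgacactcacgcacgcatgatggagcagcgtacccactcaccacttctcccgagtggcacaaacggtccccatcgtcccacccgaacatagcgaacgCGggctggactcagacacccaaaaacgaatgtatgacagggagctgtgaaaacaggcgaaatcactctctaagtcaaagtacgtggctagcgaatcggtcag
The chr6 site had no methylated read among 10 and 10 in the DNMT3A lines and among 18 and 22 in DNMT3B WT set a. A count of 0 allows levels of up to 30%, 30%, 16.7% and 13.6%, respectively. The chr19 site had none among 47 and 21 reads in N779A and 14 and 11 in set b, which allows up to 6.38%, 14.3%, 21.4% and 27.3%. The chr4 site, which was the nearest for both N656I and K777A, was methylated in 4 of 208 reads (1.92%; 95% Wilson interval 0.750 to 4.84%) and 9 of 153 reads (5.88%; 3.13 to 10.8%) in N656I. In DNMT3B WT set a it was methylated in 10 of 119 reads (8.40%; 4.63 to 14.8%) and 10 of 113 reads (8.85%; 4.88 to 15.5%). Both N656I lines were below both set a lines, a pattern for which 2 lines against 2 give an exact permutation p of 0.333 at the least. The interval of N656I replicate 1 ended just below that of set a replicate 2, and those of the other pairs of lines overlapped. The site was methylated in 4 of 29 reads (13.8%; 5.497 to 30.6%) and 1 of 38 (2.63%; 0.466 to 13.5%) in K777A, and in 4 of 72 (5.56%; 2.18 to 13.4%) and 1 of 83 (1.205%; 0.213 to 6.51%) in set b, again with overlap. Intervals and limits cover counting error only, since reads of amplified DNA are not independent molecules. From here on, levels are given as means over many sites.

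Reads on CpG sites numbered 16224222 to 36029921 per line. Of the distal sites, 5.08 to 50.3% were covered by at least 1 read per line, and 2189 to 12823 had at least 10 reads. A pair of libraries stood apart. DNMT3B WT set a replicate 2 covered 5.08% of the distal sites, at a mean of 15.2 reads per site, against 17.3 to 50.3% in the others. K777A replicate 1 had the fewest distal sites with 10 reads, 2189, of which 68.3% were CpG-dense, having 12 or more neighbours. Results without both libraries are given where they bear on a value.

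The distal windows were richer in CpG-dense sites than the interior. A distal CpG had on average 4.36 neighbours, against 3.64 at 20 to 40 Mb, and 9.78% of distal sites were CpG-dense against 6.49%. The mean GC content within 100 bases of a site was 48.9% against 47.2%. Sites within 1 kb of a transcription start made up 9.90% of distal and 6.62% of internal CpGs. Because dense sites were little methylated in every line, distal and internal levels were compared after matching for density unless said otherwise.

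Distal sites carried slightly less methylation than internal sites of the same density. Averaged over sites with at least 10 reads, the DNMT3A lines were methylated at 24.9% and 30.7% in the distal windows and at 26.0% and 32.1% at the matched internal sites. DNMT3B WT set a had 13.2% and 13.4% distally against 13.3% and 13.8%. N656I had 12.03% and 8.72% against 11.8% and 8.82%. In both of these groups, distal and internal levels were close within each line.
DNMT3B WT set b had 11.9% and 9.93% against 12.2% and 10.1%. K777A had 2.47% and 5.0003% against 2.50% and 5.22%. N779A had 7.74% and 7.23% against 8.78% and 7.38%. The distal level was the lower in 11 of the 12 lines, the exception being N656I replicate 1. The mean difference was -0.403 ± 0.509 percentage points (SD, n = 12 lines; two-sided exact sign-flip test over lines, p = 0.00635).

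With every covered site, the distal level was lower in 12 of 12 lines, by a mean difference of -0.705 ± 0.685 percentage points (SD, n = 12). The lines ranged from -2.16 to -0.192, and p = 0.000488 is the smallest that this exact sign-flip test can give. The DNMT3A lines had the largest differences, -2.16 and -2.09 percentage points, from the highest levels. The p-values describe the spread between lines, which share the same genomic sites, and do not cover the choice of sites. The difference also rested on how sites were taken: with each read weighted equally it was -0.197 (exact sign-flip p = 0.323), with the last 1 Mb -0.637 (exact p = 0.0581), and it changed sign with at least 20 reads (1.60, exact p = 0.0464, on as few as 60 sites in a line) and with the last 5 Mb (0.267, exact p = 0.00244). Without the sparse and the shallow library it was -0.439 percentage points, lower in 9 of 10 lines (exact p = 0.0156).

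**Figure D1:**
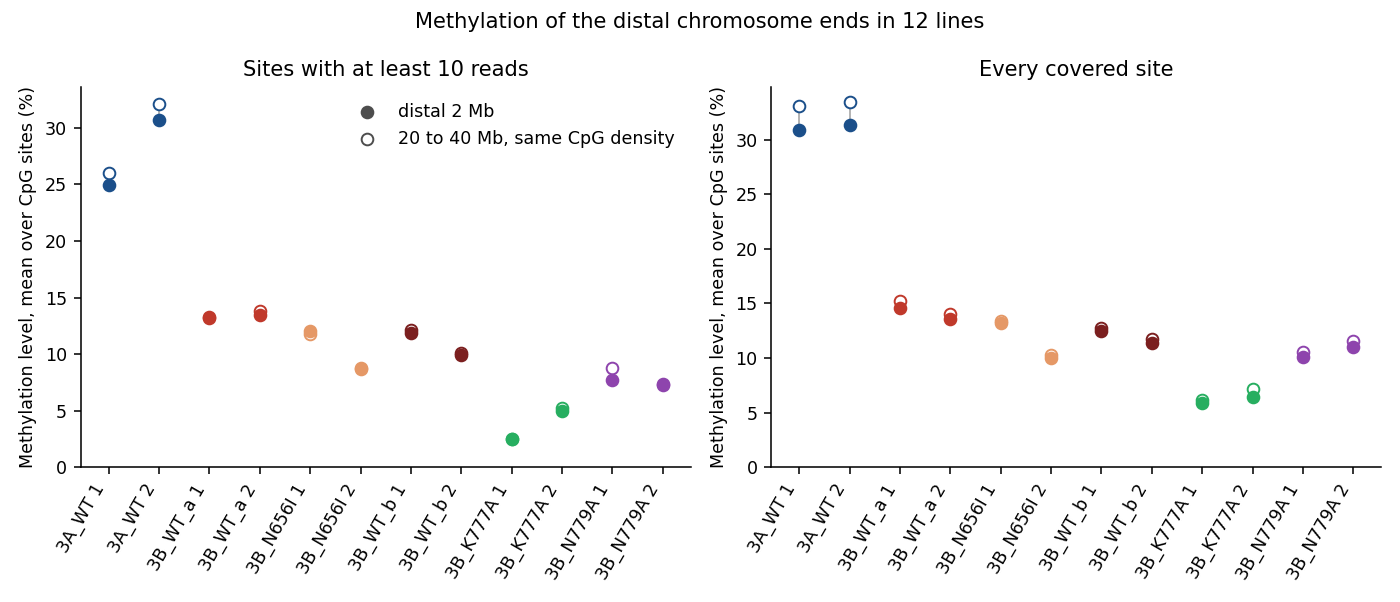
Mean CpG methylation in percent (y axis) of the distal sites (filled) and of the density-matched sites at 20 to 40 Mb (open) in each of the 12 lines (x axis), for sites with at least 10 reads on the left and every covered site on the right. With at least 10 reads, the levels differ far more between groups, from 2.47% in a K777A line to 30.7% in a DNMT3A line, than between distal and internal sites of a line.

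The lower distal level was seen most regularly at sparse CpGs. For this, the sites of a class were pooled over chromosomes. Among covered sites with no neighbour within 100 bp, and among those with 1, the distal level was lower in 12 of 12 lines. It was lower in 10 lines for 2 neighbours, in 9 for 3 to 4, in 11 for 5 to 7, in 7 for 8 to 11 and in 8 for 12 to 19. For 20 or more neighbours it was lower in only 1 line. Levels in that class were very low, at 0.540 to 1.25% distally, with differences of -0.0316 to 0.185 percentage points. At sites without a neighbour, the difference ranged from -2.94 to -0.377 percentage points.

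By annotation, again over every covered site, the distal level was lower in 12 of 12 lines within introns (-2.18 to -0.134 percentage points) and in 12 of 12 lines outside genes (-2.49 to -0.00892). In exons it was lower in 9 of 12. Within 1 kb of a transcription start it was lower in only 3 of 12, and the difference ranged from -0.203 to 0.348. On the log2 scale, the ratios of distal to internal level ranged from -0.07 to 0.20 at promoters and from -0.14 to -0.01 in introns. In DNMT3A, promoter sites were methylated at 4.74% ± 0.632 in the distal windows and 4.67% ± 0.243 internally (SD, n = 2), whereas introns had 38.1% ± 0.112 and 40.1% ± 0.276. In K777A, the group with the lowest levels, promoters had 1.28% ± 0.144 and 1.22% ± 0.136, and introns 7.59% ± 0.418 and 8.17% ± 0.718.

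**Figure D2:**
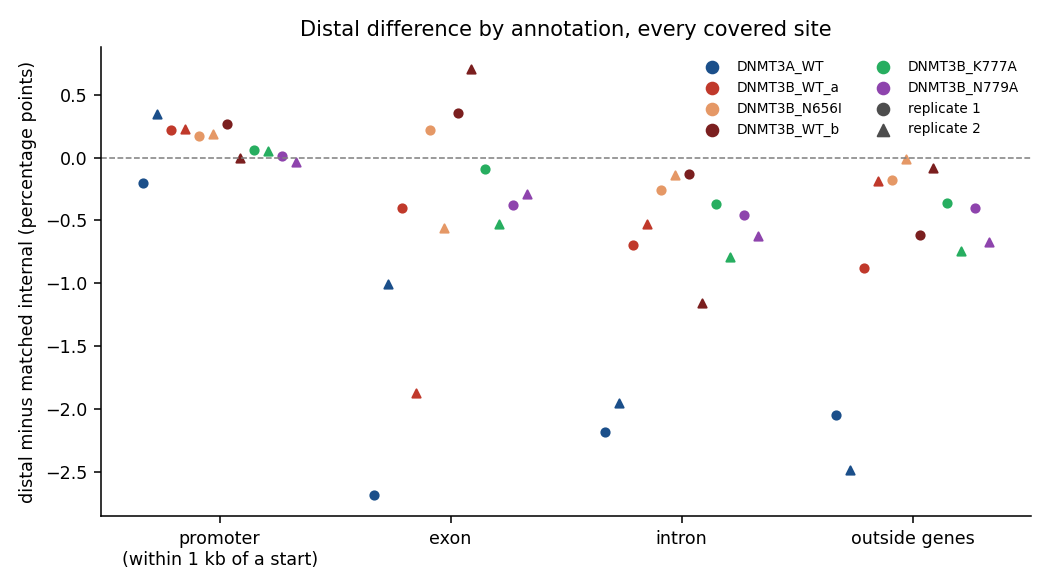
Distal minus density-matched internal methylation in percentage points (y axis) for promoters, exons, introns and sites outside genes (x axis), with 1 point per line, colours for the 6 groups and marker shapes for the replicates. Introns and sites outside genes lie below 0 in all 12 lines, while promoters, whose levels are low, lie between -0.203 and 0.348 and above 0 in 9 lines.

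The level varied with the distance from the end. For each line and distance step, the observed mean over every covered site was divided by the mean expected from the autosome-wide level of each density class in that line. In each of the 6 steps of 250 kb between 250 and 1750 kb from the last CpG, all 12 lines lay below expectation, with mean log2 ratios from -0.13 to -0.06. In the last 50 kb 9 of 12 lines lay below (mean log2 ratio -0.12 ± 0.18, SD), from 50 to 100 kb 10 of 12 (-0.16 ± 0.13), and from 100 to 250 kb 10 of 12 (-0.11 ± 0.10). Between 1750 and 2000 kb only 3 lines were below (mean 0.02 ± 0.04). From 2 to 16 Mb no line was below in any 2-Mb step, and the mean log2 ratio was highest, 0.13 ± 0.03, between 10 and 12 Mb. The region just inside the distal windows was thus above its expectation in all 12 lines, and a window of 5 Mb, with which the difference changed sign, includes part of it.

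In the DNMT3A lines, the level fell to 27.1% ± 0.432 (SD, n = 2) between 50 and 100 kb from the last CpG, where 33.8% was expected. At 1750 to 2000 kb it was 34.1% ± 0.274 with 33.5% expected. In DNMT3B WT set a the corresponding values were 13.5% ± 0.147 with 15.3% expected, and 15.0% ± 0.378 with 15.1%. The N656I lines were above expectation at the very end, with 14.7% ± 1.56 in the last 50 kb against 13.3% expected, and 12.6% ± 1.91 at 50 to 100 kb against 12.2%. In N656I this reversed further in, with 11.2% ± 2.27 at 250 to 500 kb against 11.7%. K777A was at 6.43% ± 0.5002 in the last 50 kb against 7.40% expected, and N779A at 10.5% ± 0.617 against 12.3%. DNMT3B WT set b was at 13.5% ± 3.13 against 13.9%, and its lines differed by more than this gap.

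**Figure D3:**
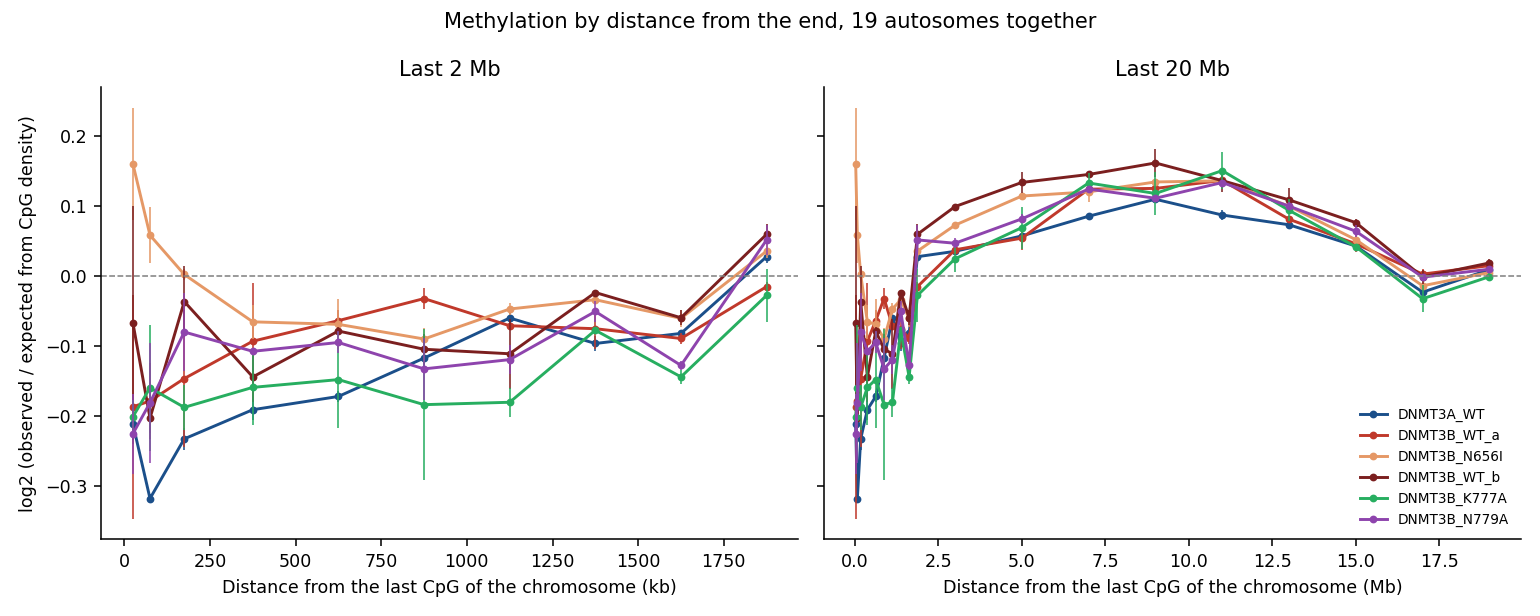
Log2 ratio of observed to density-expected methylation (y axis) against distance from the last CpG (x axis), with the mean of the 2 lines of each group as points and the lines' range as bars, for the last 2 Mb on the left and the last 20 Mb on the right. The groups lie below 0 over most of the last 1750 kb, apart from N656I in the last 250 kb, and above 0 from 2 to 16 Mb.

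The 19 ends were not alike. Every 2-Mb window of the autosomes (1192 in all) was compared with its density expectation in a limma fit over the 12 lines, as the mean of the 6 groups. At an adjusted p below 0.05 (Benjamini-Hochberg), 12 ends were lower, 4 were higher, and chr6, chr9 and chr11 were not called. Of all windows, 78.8% were called, 39.4% lower and 39.3% higher, so that to be called is usual for any window. The median log2 odds against expectation was -0.13 over the ends and 0.00 over all windows.

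The lowest ends were chr3 (log2 odds -0.41, SE 0.03, limma adjusted p = 1.82e-11), chr15 (-0.39, SE 0.03, adjusted p = 7.09e-10), chr18 (-0.33, SE 0.03, adjusted p = 8.33e-09) and chr10 (-0.30, SE 0.03, adjusted p = 2.21e-09). The values for chr17, chr14, chr12, chr13, chr19 and chr1 were -0.23, -0.20, -0.19, -0.16, -0.15 and -0.13. The chr2 and chr16 ends were each at -0.06, and their calls were lost when single lines were left out. The higher ends were chr8 (0.09), chr4 (0.07), chr5 (0.06) and chr7 (0.06). Without the adjustment for density, chr4, chr7 and chr11 were below 0, at -0.20, -0.06 and -0.30. With at least 10 reads only 12 ends had enough sites, of which 3 were called lower and 2 higher, and chr4 and chr7 then lay below 0. Among the windows of its own chromosome, the chr18 end was the 4th lowest of 43, that of chr19 6 of 29 from the lowest, that of chr10 7 of 63, that of chr15 7 of 50 and that of chr3 10 of 78. Of the 19 ends, 12 were lower than the median window of their chromosome.

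Against 20 to 40 Mb of the same chromosome, all 12 lines were lower at 7 ends (chr3, chr10, chr12, chr14, chr15, chr16 and chr19), and at no end were all 12 higher. The same count was not made for other windows. These levels of single ends are means over every covered site. At the chr3 end, the DNMT3A lines had 28.6% and 29.2% against 37.0% and 37.2% internally. DNMT3B WT set a had 13.1% and 12.4% against 17.0% and 17.2%, and set b 9.49% and 8.50% against 13.9% and 12.8%. N656I had 11.4% and 8.31% against 14.7% and 11.3%. Each of these lines lay below its internal level, and so did the other mutants.
K777A had 5.05% and 5.66% against 7.09% and 8.36%, and N779A had 9.76% and 10.5% against 11.7% and 13.1%. The chr3 end is poor in CpG and genes, with 4.92 CpG per kb, a GC content of 38.4% and 7 protein-coding genes. The other lowest ends differed in gene number, with 6 at chr18, 56 at chr15 and 86 at chr10.

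At the chr7 end, which holds 9.68 CpG per kb and 28 protein-coding genes and has a GC content of 49.2%, 11 of 12 lines were higher than at 20 to 40 Mb. The DNMT3A lines had 34.2% and 33.3% against 30.6% and 30.8%. DNMT3B WT set a had 15.6% and 15.7% against 14.6% and 13.5%, and set b 14.8% and 12.8% against 12.1% and 11.4%. N656I had 14.3% and 11.3% against 13.0% and 9.96%. In these groups each line was above its internal level.
K777A had 5.81% and 6.50% against 5.62% and 6.53%, and N779A had 10.9% and 11.01% against 10.1% and 10.8%. Only K777A replicate 2 lay below its internal level. The chr4 and chr8 ends were also higher in 11 of 12 lines.

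The chr18 end was lower in 11 of 12 lines, with 28.2% and 28.2% against 36.1% and 35.5% in the DNMT3A lines. The exception was the sparse library, DNMT3B WT set a replicate 2, with 15.8% against 13.5%, while replicate 1 of the set had 14.6% against 16.7%. At the chr10 end, which holds olfactory receptor genes, the DNMT3A lines had 28.3% and 29.2% against 36.1% and 35.99%. The K777A lines had 5.31% and 6.05% there against 6.89% and 7.69%. At the chr15 end, which holds the Hoxc genes, the DNMT3A lines had 23.8% and 24.4% against 29.6% and 30.0%, and N779A had 7.52% and 8.76% against 9.68% and 10.3%.

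The order of the ends was similar in the lines. Over the 19 ends, the log2 ratios of distal to internal level of any 2 lines correlated with a median Pearson's r of 0.82 over 66 pairs of lines (range 0.36 to 0.93). The lowest value involved DNMT3B WT set a replicate 2, without which the range was 0.65 to 0.93. The lines share the genome sequence at each end, and these are descriptions over 19 points. The mean log2 ratio of an end also went with its GC content (r = 0.58, Spearman's rho = 0.61, n = 19 ends). It went less with its CpG per kb (r = 0.45, rho = 0.46) or its pairs of TTAGGG units (r = -0.31, rho = -0.36). For its number of protein-coding genes less that of the interior, r was -0.09 and rho was -0.05. The parts of these properties in the differences between ends were not tested.

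**Figure D4:**
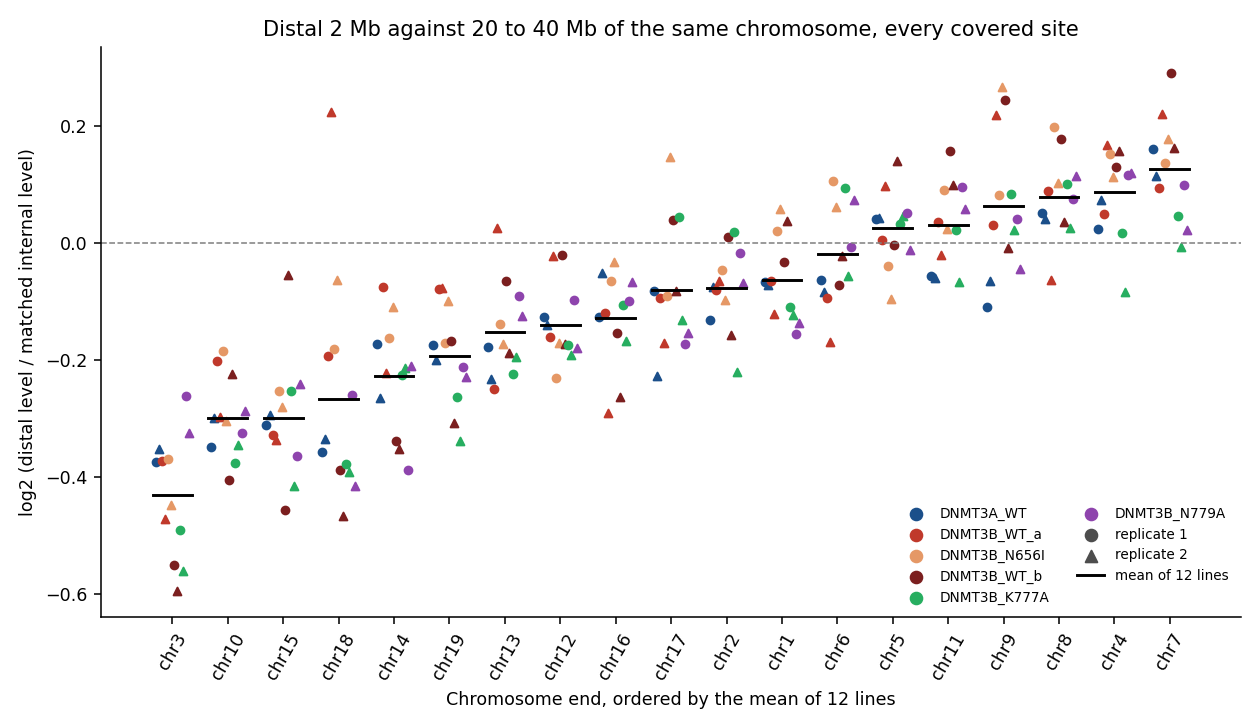
Log2 ratio of distal to density-matched internal methylation (y axis) at the end of each autosome (x axis), ordered by the mean over lines, with 1 point per line and a black bar for the mean. The points of chr3, chr10, chr12, chr14, chr15, chr16 and chr19 all lie below 0, and at chr3 they range from -0.59 to -0.26.

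Each group was compared with its DNMT3B WT control set in the level of the distal windows and in the ratio of that level to the interior. The distal level at sites with at least 10 reads was 27.8% ± 4.07 (SD, n = 2) in DNMT3A WT and 13.3% ± 0.145 in DNMT3B WT set a, a difference of 14.5 percentage points. N656I was at 10.4% ± 2.34, a difference of -2.96 from set a. DNMT3B WT set b was at 10.9% ± 1.36, K777A at 3.73% ± 1.79 and N779A at 7.49% ± 0.358, with differences of -7.16 and -3.40. These levels are not matched for density between lines, and 13.9 to 68.3% of the distal sites with 10 reads were CpG-dense. Over every covered site, the means were 31.1% in DNMT3A, 14.1% in set a, 11.6% in N656I, 11.9% in set b, 6.16% in K777A and 10.6% in N779A. The differences were then 17.0 percentage points for DNMT3A, -2.47 for N656I, -5.77 for K777A and -1.36 for N779A. The lines of the groups did not overlap in any of these 4 comparisons with either set of sites. The exact permutation test gave p = 0.333 for each, the smallest that 2 lines against 2 can give. The log2 ratios of distal to internal level were -0.06 ± 0.00 in DNMT3A, -0.02 ± 0.03 in set a, 0.00 ± 0.03 in N656I, -0.03 ± 0.01 in set b, -0.04 ± 0.03 in K777A and -0.10 ± 0.11 in N779A. Their differences were -0.04 (DNMT3A against set a, exact permutation p = 0.333), 0.03 (N656I, p = 0.667), -0.01 (K777A, p = 1) and -0.07 (N779A, p = 0.667), and the sign of the last pair changed with the processing. The ratios of DNMT3A and set a did not overlap, while those of the other comparisons did. With every covered site, the ratios did not overlap in any of the 4 comparisons. The log2 ratio of DNMT3A was then lower than that of set a by a difference of -0.04, and that of N656I was higher by 0.03. Those of K777A and N779A were lower than that of set b, with differences of -0.07 and -0.02. The exact permutation p was again 0.333 for each, so that neither levels nor ratios could pass a threshold.

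Between groups, the windows were compared with limma after adjustment for density and centring of each line on its median window, so that a change is relative to the rest of the autosomes. None of the 19 ends was called in any of the 4 comparisons, and neither was any of the 1192 windows (0% called). At an unadjusted p below 0.05 there were 2 ends for DNMT3A, 2 for N656I, 3 for K777A and 3 for N779A, of 131, 43, 266 and 180 windows in all (11%, 3.61%, 22.3% and 15.1%). A quasi-binomial regression called 3 ends for K777A, where it called 11.7% of all windows, and none for DNMT3A (0.0839% of all windows), N656I (0%) and N779A (0.503%). The median change over the ends was -0.08 for DNMT3A (-0.01 over all windows), 0.03 for N656I (0.00), -0.06 for K777A (0.02) and -0.01 for N779A (0.01).

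The end nearest to the threshold was that of chr7 in K777A against DNMT3B WT set b, with a log2 change of -0.33 (SE 0.07, limma adjusted p = 0.0532). It passed the threshold with at least 5 reads (-0.50, limma adjusted p = 0.0108), with each read weighted equally (-0.36, adjusted p = 0.000870), with all 12 lines in the fit (-0.33, adjusted p = 0.0142), and in the quasi-binomial regression (-0.37, adjusted p = 0.000326). These fits called 0.672%, 4.87%, 4.53% and 11.7% of all windows. It was not called with at least 10 reads (-0.06, limma adjusted p = 0.966), without CCGG sites (-0.22, adjusted p = 0.208), without centring, without adjustment for density, with the replicate number as a block or with the lines paired the other way. The log2 change of the same end in N779A against set b was -0.22 (SE 0.06, limma adjusted p = 0.0970), and these comparisons share their controls. The chr3 end had a log2 change of 0.32 in N779A (SE 0.11, limma adjusted p = 0.160). The chr18 end had -0.49 in DNMT3A against set a (SE 0.14, limma adjusted p = 0.422), and -0.27 (adjusted p = 0.00864) without the sparse library. It was also called with all 12 lines in the fit, as were 1.43% of all windows. The chr9 end had -0.33 in DNMT3A (SE 0.09, limma adjusted p = 0.422). There, the DNMT3A lines had 30.6% and 32.0% against 33.0% and 33.5% internally, and the set a lines 15.9% and 16.5% against 15.6% and 14.1%. With the replicate number as a block, chr9 (limma adjusted p = 0.00828) and chr18 (0.00218) were called for DNMT3A, with 2.94% of all windows, although the numbers do not pair the lines. Calls also depended on single control lines, at the ends and over all windows. Without set a replicate 1, 7 of the 19 ends were called for DNMT3A, with 46.1% of all windows, and 2 for N656I, with 8.81%. Without set a replicate 2, 3 ends were called for DNMT3A, with 11.1% of all windows. Without set b replicate 1, 2 ends were called for K777A (14% of all windows) and 2 for N779A (8.89%), and without set b replicate 2, 1 (6.8%) and 2 (7.21%). The control line left is then assumed to vary like the other lines.

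The windows hold the midpoints of 515 of the 20807 protein-coding genes of the autosomes. A gene was measured from 1000 bp upstream of its start to its end. Of 8846 autosomal genes with at least 20 covered sites in every line, 9.01% lay below their density expectation in all 12 lines and 8.76% above it. Of the 164 such genes in the distal windows, 23 (14.02%) lay below in all lines and 5 (3.05%) above.

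The gene nearest to each end among those with at least 20 covered sites in every line was considered next. Wls, which encodes the Wntless protein needed for secretion of WNT proteins, lies at chr3:159839672-159938664 and ends 0.645 kb before the last CpG. Its level was below expectation in 12 of 12 lines. The DNMT3A lines had 30.6% and 19.4% with 37.9% expected on average, and the other lines had 2.03 to 11.02%. Bicd1, an adaptor of dynein motor transport, ends 23.0 kb before the last CpG of chr6 and was below in only 4 lines, with 37.9% ± 2.66 in DNMT3A (37.1% expected) and 8.92% ± 0.0935 in K777A (7.49% expected). Ppp2r3d, a phosphatase regulatory subunit gene on chr9, ends 17.97 kb before the last CpG. Its level was 14.8% ± 0.759 in DNMT3A and 9.75% ± 3.68 in set a, with 16.9% and 6.33% expected. A log2 change of -1.07 (SE 0.24, limma adjusted p = 0.752) therefore went with a higher level in DNMT3A, because it is relative to expectation. Tpcn2, a lysosomal ion channel gene 56.9 kb from the last CpG of chr7, was below expectation in 2 lines, with 41.9% ± 6.51 in DNMT3A and 7.86% ± 0.0108 in K777A (38.8% and 7.52% expected).

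Of the 19 genes so chosen as nearest to an end, 6 were below expectation in all 12 lines and 1, B3gntl1 on chr11, was above in all. Some lay far from the end, with distances to the last CpG from 0.645 kb (Wls) to 1680 kb (Adcyap1). The distance was 125 kb for Fgf14, 832 kb for Dok6 and 309 kb for B3gntl1. Fgf14, a regulator of neuronal sodium channels on chr14, had 30.6% ± 0.550 in DNMT3A (38.0% expected) and 10.6% ± 0.0920 in DNMT3B WT set b (13.8%). Dok6, an adaptor of receptor tyrosine kinase signalling on chr18, had 21.8% ± 0.461 in DNMT3A with 35.4% expected, and 7.502% ± 1.21 in N779A with 11.9%. Adcyap1, which encodes the neuropeptide PACAP, on chr17, had 16.5% ± 5.63 in DNMT3A with 26.7% expected. B3gntl1 had 38.5% ± 4.52 in DNMT3A with 34.4% expected, and 10.7% ± 1.76 in K777A with 7.02%.

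Among gene groups within the windows, the Hoxc genes, homeobox genes that pattern the body axis, were below expectation in 12 of 12 lines. The 9 genes together had 11.3% ± 0.0467 in DNMT3A (20.9% expected), 3.44% ± 0.0838 in set b (8.38%) and 1.74% ± 0.0445 in K777A (4.55%). Of the Hoxc genes with 20 covered sites in every line, Hoxc5 and Hoxc9 were below in 12 lines, Hoxc13 in 11 and Hoxc4 in 10. The annotated span of Hoxc5 contains that of Hoxc9, so that they share sites. The 60 Olfr genes of chr10, which encode odorant receptors, were also below in 12 of 12, with 24.9% ± 0.310 in DNMT3A against 39.7% expected and 6.29% ± 0.908 in set b against 14.4%. Their values pool 56 to 781 covered sites per line, and no single Olfr gene had enough sites to be tested. Olfr genes resemble one another in sequence, so reads from some of them may not be assigned uniquely.

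Cd46, Cr1l and Cr2, which encode regulators and receptors of complement, and their neighbour Cd34 on chr1 were together below in 12 of 12 lines, with 24.0% ± 2.35 in DNMT3A (35.1% expected). The growth factor genes Fgf3, Fgf4 and Fgf15 with the cyclin gene Ccnd1 on chr7 were below in 12 of 12, with 11.8% ± 4.0007 in DNMT3A (17.5% expected) and 1.79% ± 0.312 in K777A (3.98%). The 7 chemokine receptor genes of chr9 together were below in 11 of 12, with 26.7% ± 1.70 in DNMT3A (34.1% expected), but among them only Ccr9 had 20 covered sites in every line. The 6 genes Cdkn1c, Phlda2, Slc22a18, Nap1l4, Tnfrsf23 and Osbpl5, from the imprinted region of distal chr7, were below in 10 of 12, with 24.0% ± 2.65 in DNMT3A (27.9% expected). Inherited methylation imprints are lost in cells without Dnmt1.

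Other groups were below in fewer lines. The chr4 genes Hes5, Dvl1, Agrn and Isg15 were below in 4 of 12 lines and the chr11 genes Sirt7, Notum and Fasn in 3 of 12. Genes of a group differed in this count. On chr4, Hes5, a target of Notch signalling, was below in 12 lines, with 3.76% ± 1.78 in DNMT3A (7.66% expected), and Agrn, which encodes agrin, in 3. On chr11, Notum, which encodes an inhibitor of WNT proteins, was below in 9 lines, and Fasn, the fatty acid synthase gene, in 2, with 13.9% ± 0.666 in N656I (7.43% expected). Rtel1, a helicase gene that protects telomeres, and Sox18, a transcription factor gene, on chr2, were together below in 7 of 12. The Tcstv genes of chr13, expressed in cells resembling 2-cell embryos, were below in 9 of 12 but had only 1 to 4 covered sites per line, and gave no usable level.

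**Figure D5:**
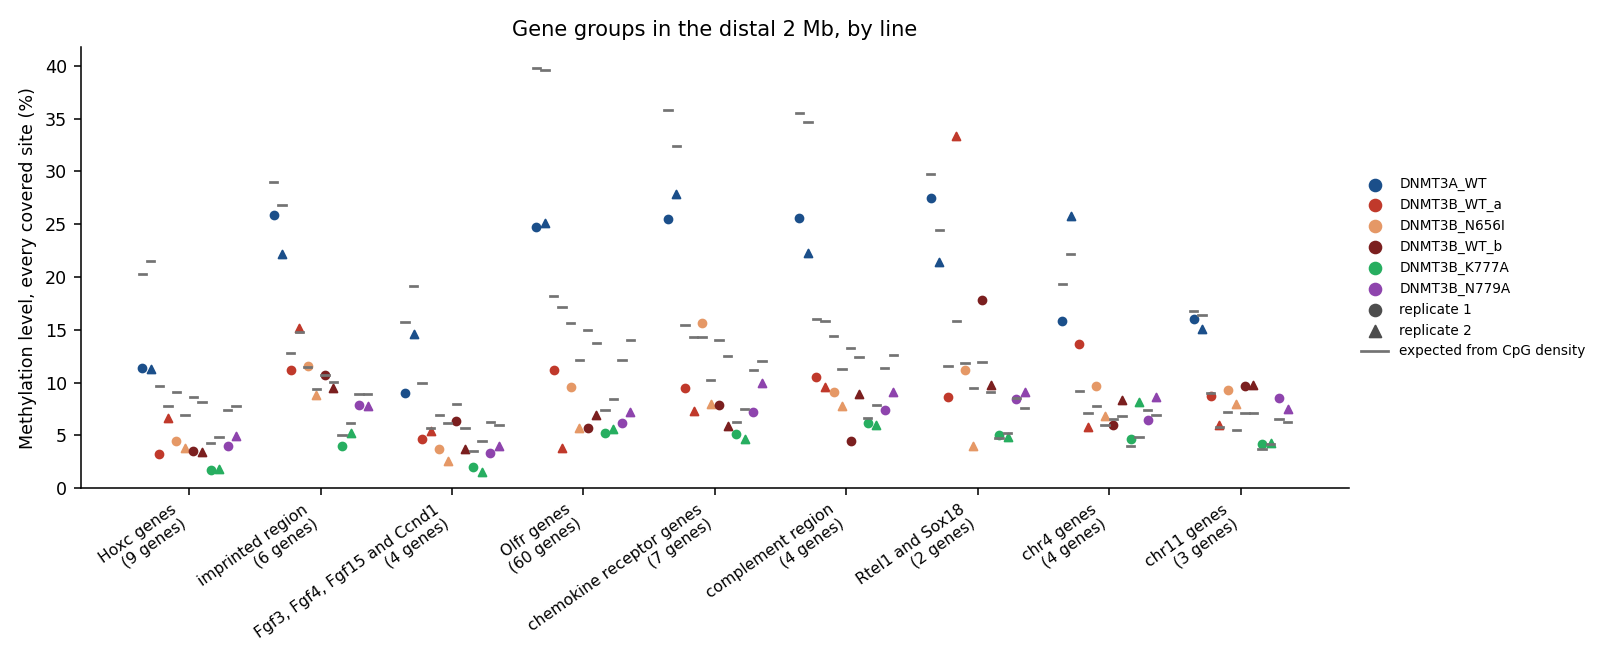
Mean methylation in percent (y axis) of the covered sites in each gene group of the distal windows (x axis), with 1 coloured point per line and a grey dash for the level expected in that line from CpG density. All 12 points lie below their dashes for the Hoxc, Olfr and complement groups and for the Fgf genes with Ccnd1, but only 4 do for the chr4 and 3 for the chr11 genes.

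Between groups, no gene of the windows was called with limma, among 165 tested for DNMT3A, 165 for N656I, 344 for K777A and 343 for N779A (0% of 8857, 8858, 15378 and 15336 genes called). At an unadjusted p below 0.05 there were 10, 9, 36 and 22 genes of the windows, and 5.8%, 3.84%, 7.23% and 5.27% of all genes. The quasi-binomial regression called Ppp2r3d in N779A against set b (log2 change -1.75, adjusted p = 0.0222) and no other gene of the windows. It called 0.00652% of all genes for N779A and 0.0325% for K777A. With the replicate number as a block, Rbbp8nl was called for K777A, again with 0.0325% of all genes. The level of Ppp2r3d was 4.90% ± 0.107 in N779A, 3.33% ± 1.36 in K777A and 13.9% ± 7.10 in set b. Osbpl5, which encodes a lipid-binding protein, had 3.80% ± 2.46 in K777A and 13.9% ± 2.18 in set b (log2 change -1.08, SE 0.55, limma adjusted p = 0.720). Other genes had values in the opposite direction: Cd34 had 9.01% ± 0.0967 in K777A and 4.196% ± 0.494 in set b (log2 change 1.63, SE 0.33, limma adjusted p = 0.654). Cdkn1c, from the same imprinted region as Osbpl5, had 2.04% ± 1.38 in K777A and was at 0 in both set b lines (limma adjusted p = 0.654). Without set a replicate 1, 46 of 165 gene entries of the windows were called for DNMT3A, Hgs being counted under 2 identifiers, with 27.4% of all genes, and 14 for N656I, with 10.1%, the remaining sparse control library being assumed to vary like the others. The absence of calls does not show that levels were equal.

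The base that follows the CpG, whose relation to methylation the study examined, was compared over every covered site, without matching for density and without a test. The mean level was lower distally for each of the 4 following bases in every group. In DNMT3A it was 28.8% ± 0.554 against 34.2% ± 0.405 for C (SD, n = 2) and 30.4% ± 0.00258 against 34.3% ± 0.0330 for A. For G it was 30.3% ± 0.676 against 33.9% ± 0.242, and for T 34.9% ± 0.212 against 39.0% ± 0.000872. A relative level was then computed as the mean level of CpGs followed by 1 base, in percent of the sum of the mean levels for the 4 bases. It differed by at most 2.02 percentage points between distal and internal sites of a line. The relative level for C was lower distally in 12 of 12 lines, and that for A was higher in 12 of 12, while those for G and T were each higher in 8. For C it was 21.0% ± 0.0572 in distal and 22.2% ± 0.0663 in internal sites of K777A, and 23.2% ± 0.256 and 24.2% ± 0.170 in DNMT3A. The relative level for T was 38.5% ± 0.130 in distal and 37.8% ± 0.170 in internal sites of K777A, and that for G 13.9% ± 0.231 and 13.8% ± 0.289. In N656I the relative level for G was 34.9% ± 0.547 and 34.8% ± 0.198. In N779A it was 30.9% ± 0.458 and 30.7% ± 0.173, and in DNMT3A 24.3% ± 0.345 and 24.0% ± 0.0556.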

How the data were processed

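Genomic DNA of 12 TKO ES cell lines was digested with MspI, BfaI and MseI, bisulfite-treated and sequenced in read pairs (eRRBS). According to the submitters' processing notes and the study's methods, reads were trimmed with cutadapt (1.12 in the notes, another version in the methods), aligned with Bismark 0.18.1 and Bowtie 1.2 to mm10 (GRCm38), and read pairs carrying at least 3 methylated cytosines outside CpG were left out. The authors deposited counts of reads for each site, namely the methylated reads and all reads in each line, with both strands collapsed, lines not pooled and no normalization. All listed autosomal positions were CG in GRCm38, and no column was left unused. The sequences of the chromosome ends are not reported here.

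A site's level was the share of its reads that were methylated. Levels of a line were means over sites with at least 10 reads in that line, or over every covered site where said, each site weighted equally. Values by density class, annotation, distance, end, window, gene and following base use every covered site. Internal means were taken in strata of chromosome and 8 classes of CpG density and weighted to the distal sites of the line. The comparison by density class instead pooled the sites of all chromosomes, without weights. Permutation tests were exact and two-sided. The windows of 2 Mb were counted back from the last CpG of each autosome. Windows and protein-coding genes needed 20 covered sites per line and were compared with limma 3.58.1 (R 4.3.3, trended empirical Bayes) on log2 odds of the observed minus the density-expected mean, with 0.5/n (n sites) added as an offset, each line centred on its median and p-values adjusted by the Benjamini-Hochberg method over all windows or genes, with a threshold of 0.05. Expected levels were the autosome-wide means of each density class in the line. Other steps used Python 3.11.15 and scipy 1.17.1, and the limma step was tested on simulated data.

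The distal windows, gene groups and tests were chosen with earlier results of these data known. The genes named are the protein-coding gene nearest to each end with 20 covered sites per line, genes chosen for their known roles, and, had there been any, the 3 largest changes in each direction among called genes without overlap of the groups. Rbbp8nl and Hgs were named after their values were seen. The comparison of windows with their density expectation, and leaving out the sparse and the shallow library together, were added after seeing the data. Set a of DNMT3B WT is the control of DNMT3A WT and N656I, and set b that of K777A and N779A, after the prefix of the library names. Same-numbered lines come from no shared source in the labels, and their deviations over 1192 windows correlated with r = 0.0595 (DNMT3A), 0.144 (N656I), -0.114 (K777A) and 0.0804 (N779A), so the main tests use no block. Alternatives changed the minimum of reads, weights, windows, strata, filters, block, model and lines.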

Additional observations from a re-analysis of the deposited data

Results flagged for a closer look

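In 76 comparisons of an end between groups and 40 of a distance step within the windows, 4 ends and 4 steps had both lines of one group above their reference and both of the control group below, or the reverse. The same count was not made for other windows or steps, so it is not known how usual such a pattern is. The comparisons share controls, and none of these windows was called by limma in the fits without a block and with all lines of the comparison. The chr9 end was called for DNMT3A with the replicate number as a block and without either set a line. At the chr9 end, the distal minus internal difference was -2.40 and -1.47 percentage points in the DNMT3A lines and 0.350 and 2.32 in DNMT3B WT set a, a difference of means of -3.272 (limma adjusted p = 0.422 for the window). Between N656I and set a, the means differed by 1.337 percentage points at the chr1 end, where the N656I lines had 0.218 and 0.476 and the set a lines -0.723 and -1.26. They differed by -1.158 at the chr5 end (-0.406 and -0.734 against 0.0693 and 1.11) and by 2.177 at the chr6 end (1.11 and 0.484 against -1.04 and -1.72). The limma adjusted p was 0.838 for each of these 3 windows.

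Among distance steps, the difference of observed from expected level was set side by side, and the difference between groups was not tested. In the last 50 kb it was 0.853 and 2.09 percentage points in the N656I lines and -0.316 and -3.45 in set a (difference of means 3.351). Between 50 and 100 kb it was 0.171 and 0.742 in N656I and -2.34 and -1.23 in set a (2.243). Between 1750 and 2000 kb, the DNMT3A lines had 0.860 and 0.419, the N656I lines 0.437 and 0.18 and the set a lines -0.230 and -0.0943, with differences of means of 0.8021 for DNMT3A and 0.4707 for N656I. In the steps of the last 100 kb, the sparse library DNMT3B WT set a replicate 2 rests on as few as 212 covered sites.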

How the results depend on the processing

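The distal minus internal difference of -0.403 percentage points kept its sign under the alternatives tried except with at least 20 reads (1.601, on as few as 60 sites in a line) and with the last 5 Mb (0.2669). With each read weighted equally (-0.1965) and with the last 1 Mb (-0.6366) it no longer passed the threshold. Leaving out single lines gave -0.458 to -0.308. The log2 ratio of K777A against set b, -0.01, turned positive with at least 20 reads (0.4886), each read weighted equally (0.009965), the exact number of neighbours (0.01583), strata with the bases beside the CpG (0.0611) and as a difference in percentage points (0.1331), and ranged from -0.02782 to 0.01286 with lines left out. That of N779A, -0.07, turned positive with at least 20 reads (0.9343), the last 5 Mb (0.003765) and chromosomes weighted equally (0.0001888), and ranged from -0.148 to 0.005179 with lines left out. None of these ratios passed a threshold in any setting, since 2 lines against 2 cannot. The causes were not tested.

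Against expectation, 12 ends were lower and 4 higher. With at least 10 reads, which left 12 ends, 3 were lower and 2 higher, chr4 was at -0.1022 and chr7 at -0.0008637. Without density adjustment, 15 were lower and 2 higher, with chr4 at -0.1978, chr7 at -0.06433 and chr11 at -0.2983. Leaving out single lines gave 10 to 12 lower and 4 to 5 higher.

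Between groups, 0 ends were called, but 1 for DNMT3A (chr18) and 1 for K777A (chr7) with all 12 lines in 1 fit. For K777A, chr7 alone was called with at least 5 reads (1 end) or reads weighted equally (1 end), and the quasi-binomial regression called 3 (chr2, chr7 and chr11), with 11.7% of all windows. Leaving out single lines gave 0 to 7 ends for DNMT3A, 0 to 2 for N656I, 0 to 2 for K777A and 0 to 2 for N779A, and 0 to 46 genes for DNMT3A and 0 to 14 for N656I. The fits with the most calls also called 46.1%, 8.81%, 14% and 8.89% of all windows, and 27.4% and 10.1% of all genes. The quasi-binomial regression called 1 gene for N779A (Ppp2r3d).

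With the replicate number as a block, 2 ends were called for DNMT3A (chr9 and chr18) and 1 gene for K777A (Rbbp8nl, log2 change -2.02), and it changed no other call among the ends and genes of the distal windows. Levels and log2 ratios have the same values with the numbers as pairs (14.46 percentage points for the DNMT3A level). With K777A lines paired the other way, added after seeing the data, 0 ends and 0 genes were called. The tests of ends and genes rest on 2 lines per group and on 15314 to 151753 covered distal sites per line, and a missing call does not show equal levels.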
